A study of Homo sapiens with 4 samples.

Results

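The protein-coding genes of the Prader-Willi region on chromosome 15 (15q11-q13) were described in PC-3-BM cells and their parental line PC-3. The imprinted genes were MKRN3, MAGEL2, NDN, SNRPN, UBE3A and ATP10A, and they were kept apart from NIPA1, NIPA2, CYFIP1 and HERC2, which flank them and are not imprinted. Every probe set whose platform annotation holds 1 of these 10 symbols, alone or with others, was taken, which gave 22 of the 33297 probe sets on the array. Of these, 9 carried 1 symbol and 13 carried several. The genes were chosen by their place in the region, at a time when their PC-3-BM minus PC-3 differences on these arrays were known, and are treated as selected on those differences, so their differences are given below as a description with the standard error (SE) of the fit and without a test.

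PC-3 is a human prostate cancer cell line that was established from a bone metastasis. PC-3-BM, labelled as having high metastatic potential, was recovered from bone lesions of nude mice after repeated rounds of intracardiac injection of PC-3 cells, was sorted for green fluorescent protein, and is described by the study as a clone (PC3-BM). PC-3, labelled as having poor metastatic potential, is the line it came from (PC3-P), and both lines carry a firefly luciferase and green fluorescent protein construct. The labels speak of growth in immunocompromised mice and the methods of cultured cells, so it is not settled which were taken for RNA. Each line was measured on 2 arrays, which bear numbers but are not said to come from separate cultures, so p-values measure only the spread between these arrays, and this spread may be technical. The smallest two-sided p that an exact permutation of 2 against 2 arrays allows is 0.333, and the number of arrays limits the precision of every value.

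Genomic imprinting keeps 1 parental copy of a gene silent through DNA methylation laid down in the germ line. At 15q11-q13 an imprinting centre at the first exon of SNURF-SNRPN controls a cluster in which MKRN3, MAGEL2, NDN and SNRPN are read from the paternal copy, and loss of that paternal expression causes Prader-Willi syndrome. UBE3A is read from the maternal copy in neurons and from both copies in most other cells, and its maternal loss causes Angelman syndrome. The long SNURF-SNRPN transcript runs on through tandem copies of the small nucleolar RNAs (snoRNAs) SNORD116 and SNORD115, which are cut from its introns. The arrays do not tell parental copies apart, and in bulk RNA fewer expressing cells and less RNA per cell cannot be told apart.

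The reference promoters of 3 genes are shown because the results turn on SNRPN, which was lower in PC-3-BM, on NIPA1, which was higher, and on NDN, which was dim in both lines. They come from RefSeq (assembly GRCh38.p14), span 300 bases around the annotated start, run 5′ to 3′ on the gene's strand, and have CpG dinucleotides, the sites of DNA methylation, in capitals. The SNURF-SNRPN start lies at chr15:24954737-24955036 (plus strand), NDN at chr15:23687256-23687555 (minus strand) and NIPA1 at chr15:22786394-22786693 (plus strand).
SNURF-SNRPN: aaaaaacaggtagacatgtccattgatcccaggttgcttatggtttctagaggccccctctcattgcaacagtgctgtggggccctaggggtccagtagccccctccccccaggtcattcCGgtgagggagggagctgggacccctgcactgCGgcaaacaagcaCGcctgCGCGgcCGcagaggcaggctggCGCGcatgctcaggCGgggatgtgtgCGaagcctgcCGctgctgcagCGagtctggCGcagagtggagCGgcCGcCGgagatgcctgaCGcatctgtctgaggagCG
NDN: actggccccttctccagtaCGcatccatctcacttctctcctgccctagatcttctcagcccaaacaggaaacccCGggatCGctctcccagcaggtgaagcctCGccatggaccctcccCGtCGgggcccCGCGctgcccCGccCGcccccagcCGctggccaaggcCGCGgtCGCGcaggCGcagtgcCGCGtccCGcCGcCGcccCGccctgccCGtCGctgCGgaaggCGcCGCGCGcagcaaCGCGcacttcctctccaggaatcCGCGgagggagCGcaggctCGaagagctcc
NIPA1: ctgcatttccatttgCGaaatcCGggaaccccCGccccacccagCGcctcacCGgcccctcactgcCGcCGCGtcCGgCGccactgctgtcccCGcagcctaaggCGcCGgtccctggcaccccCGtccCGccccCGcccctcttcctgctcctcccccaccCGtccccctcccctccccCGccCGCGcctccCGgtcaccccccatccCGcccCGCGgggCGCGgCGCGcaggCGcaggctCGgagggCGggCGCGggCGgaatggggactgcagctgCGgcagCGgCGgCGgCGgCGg

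The SNURF-SNRPN promoter held 18 CpG, a number that 44.5% of the 35097 RefSeq promoters of this length reached, and the median promoter held 14. The other 3 annotated SNRPN starts had 7, 2 and 11 CpG. NDN held 35 CpG and NIPA1 held 40, reached by 14.1% and 7.61% of promoters. Among the other genes MAGEL2 had 9 CpG and MKRN3 had 15, whereas NIPA2 and ATP10A had 37 each and HERC2 had 39. UBE3A had 3 annotated starts with 38 to 44 CpG, and CYFIP1 had 4 starts with 10 to 31. A match to the letters GCGCATGC, a core of the site of the transcription factor NRF1, was searched on both strands and occurred 1 time in the SNURF-SNRPN promoter, as it did in 3.05% of all promoters. The letters AAGATGGC of the YY1 site were found in the promoter of a start of SNRPN further downstream and in 2 of the UBE3A promoters, and in 2.89% of all promoters. These matches are descriptions of the reference sequence, and methylation was not measured here.

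The values are log2 expression made by RMA (robust multichip average), a procedure that removes background, gives all arrays the same distribution and combines the probes of each probe set. They ran from 2.30 to 14.4 over all probe sets with a lower quartile of 5.02, and RMA gives no detection call, so differences of probe sets below that quartile are uncertain. Array medians lay between 6.66 and 6.72, the median SD between the arrays of a line was 0.07 in each line, and Pearson's r over the probe sets of a pair of arrays (not independent replicates) was at least 0.996 within a line and at most 0.985 between lines. In the fit across all probe sets (limma, Benjamini-Hochberg adjusted p below 0.05) 23.2% of probe sets differed between the lines, 11.6% higher and 11.6% lower in PC-3-BM, and the arrays of the lines did not overlap for 62.8%. Among probe sets with 1 symbol 14.6% were higher and 14.7% were lower. Each gene was set against itself across lines, since levels of different probe sets are not comparable.

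SNRPN, encoding SmN, a protein of the spliceosomal Sm core that is abundant in neurons, was lower in PC-3-BM than in PC-3. No probe set carried its symbol alone. The probe set shared with SNURF (7981919), the small reading frame on the same transcript, read 7.71 and 7.75 on the PC-3-BM arrays, against 8.84 and 8.89 on the PC-3 arrays. Both PC-3-BM arrays lay well below both PC-3 arrays, and the gap between the groups was far wider than the distance between arrays of a line. The difference of PC-3-BM minus PC-3 was -1.14 on the log2 scale (SE 0.07), so the level in PC-3 was 2.20 times that in PC-3-BM. SNRPN and SNRPB encode near-identical proteins, and how far their probes cross-hybridise was not tested.

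The other 7 SNRPN probe sets also carried snoRNA symbols, and the 8 held 5 different sets of values because some were identical. The probe set shared with SNORD116-4 read 6.89 and 6.83 on the PC-3-BM arrays, against 8.17 and 7.88 on the PC-3 arrays (difference -1.16, SE 0.12). The 2 probe sets shared with 9 SNORD116 symbols held the same values, 11.42 and 11.43 in PC-3-BM, against 12.21 and 12.01 in PC-3 (difference -0.69, SE 0.09). The groups did not overlap in any of these 3 probe sets, as was so for 62.8% of all probe sets. In each of the 3 the first PC-3 array was the highest of the 4. The 4 probe sets shared with SNORD115 symbols lay between 2.94 and 3.32 in PC-3-BM and between 2.91 and 3.27 in PC-3, below the lower quartile on every array, with differences of 0.08 (SE 0.10) and 0.00 (SE 0.08). The SNRPN symbol thus stood on probe sets that were lower in PC-3-BM where it was shared with SNURF or SNORD116, and on dim, overlapping ones where it was shared with SNORD115.

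MKRN3, an intronless gene for a RING-finger ubiquitin ligase of the makorin family that restrains the onset of puberty, read 6.44 and 6.75 on the PC-3-BM arrays, against 6.31 and 6.21 on the PC-3 arrays. Both PC-3-BM arrays were above both PC-3 arrays, with a gap of 0.13 between the groups, but the PC-3-BM arrays lay further apart than that from each other. The difference was 0.34 (SE 0.12), opposite in sign to that of SNRPN, and 0.18 without the second PC-3-BM array.

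MAGEL2, which encodes a MAGE-family protein that acts with the ligase TRIM27 and the WASH complex in the sorting of endosomal cargo, read 5.53 and 5.30 in PC-3-BM, against 5.31 and 5.20 in PC-3. The groups overlapped, and the difference was 0.17 (SE 0.10). NDN, encoding necdin, a MAGE-family protein known to hold back proliferation in neurons, read 4.82 and 4.72 in PC-3-BM, against 4.85 and 4.86 in PC-3. The PC-3-BM arrays were just below the PC-3 arrays, all 4 values were under the lower quartile, and the difference was -0.08 (SE 0.07). Without the first PC-3-BM array the MAGEL2 difference was 0.05.

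UBE3A, the ubiquitin ligase E6-AP, read 8.36 and 8.23 in PC-3-BM, against 8.51 and 8.58 in PC-3, with a difference of -0.25 (SE 0.08). Both PC-3-BM arrays were below both PC-3 arrays. ATP10A, a phospholipid-flipping ATPase whose imprinting in humans is reported to vary between individuals, read 5.17 and 5.04 in PC-3-BM, against 5.43 and 5.42 in PC-3, with a difference of -0.31 (SE 0.08). Its groups did not overlap either, but its values stood only a little above the lower quartile.

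Among the flanking genes NIPA1 was clearly higher in PC-3-BM. It encodes a magnesium transporter of endosomes and the plasma membrane that is mutated in a hereditary spastic paraplegia. NIPA1 read 10.025 and 9.995 on the PC-3-BM arrays, against 9.334 and 9.315 on the PC-3 arrays. The arrays of each line almost coincided and the lines were far apart, with a difference of 0.69 (SE 0.07), or 1.61-fold. CYFIP1, a subunit of the actin-regulating WAVE complex that also binds the translational repressor FMRP, read 9.59 and 9.53 in PC-3-BM, against 9.17 and 9.19 in PC-3, a difference of 0.38 (SE 0.07), or 1.30-fold. Its groups did not overlap.

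NIPA2, the magnesium transporter gene that neighbours NIPA1, read 10.57 and 10.69 in PC-3-BM, against 10.66 and 10.67 in PC-3. The PC-3 values lay between the PC-3-BM values and the difference was -0.03 (SE 0.08). The higher level of NIPA1 in PC-3-BM was thus not seen in this adjacent, related gene. HERC2, a very large HECT-domain ubiquitin ligase that binds UBE3A, read 8.44 and 8.36 in PC-3-BM, against 8.48 and 8.52 in PC-3, by its 1-symbol probe set (difference -0.10, SE 0.07). The 5 other HERC2 probe sets also carried symbols of its pseudogenes HERC2P2, HERC2P3, HERC2P4 or HERC2P9, and which copy they measured is uncertain. Their levels were 10.46 to 10.85 in PC-3-BM and 10.10 to 10.73 in PC-3. All 5 were higher in PC-3-BM without overlap, by 0.15 to 0.31 with a median of 0.18. This is the other direction from the 1-symbol probe set. The threshold of the fit was passed by 0 of the 5, and arrays did not overlap for 62.8% of all probe sets. These 5 share pseudogene symbols, so they are not independent of each other. In all 5 the first PC-3 array was above the second.

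**Figure D1:**
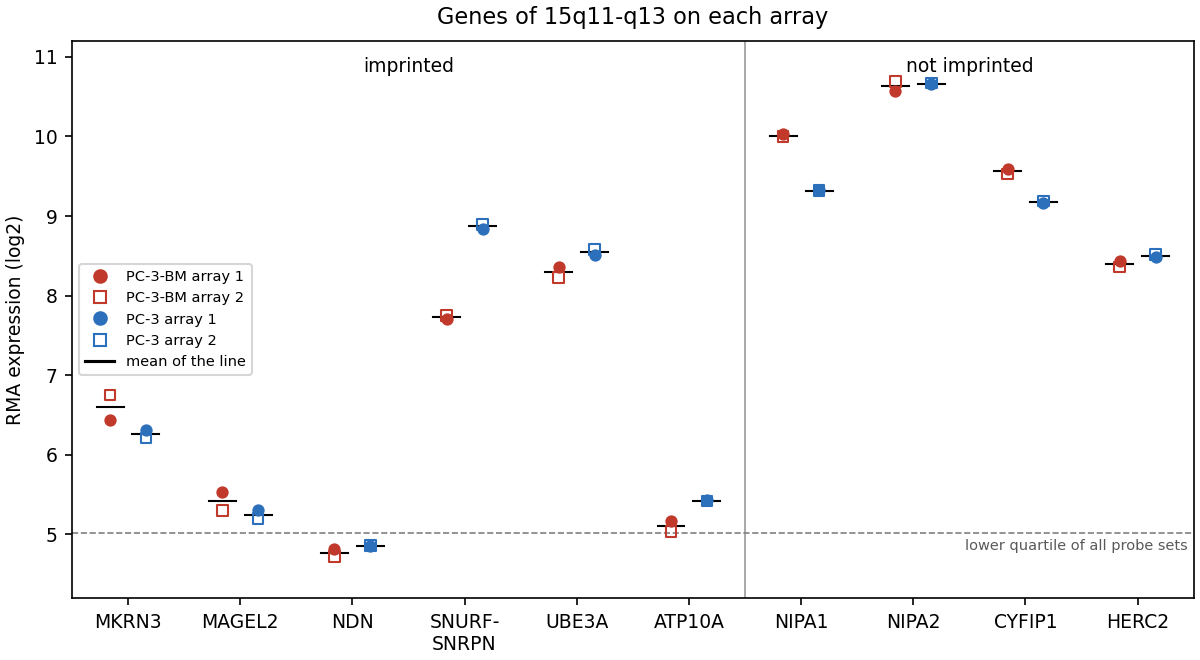
Level on the RMA log2 scale (vertical axis) for the 10 genes (horizontal axis, imprinted genes left of the grey line and flanking genes right of it) on each array, with PC-3-BM in red and PC-3 in blue, filled circles for array 1, open squares for array 2 and black bars for the mean of each line. SNURF-SNRPN lies at 7.71 and 7.75 in PC-3-BM, below 8.84 and 8.89 in PC-3, NIPA1 is higher in PC-3-BM, and NDN is under the dashed lower quartile of 5.02 in both lines.

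Taking 1 probe set per gene, the 6 imprinted genes had a median difference of -0.17, between -1.14 for SNRPN and 0.34 for MKRN3, beside a median of -0.02 over all probe sets. The threshold of the fit was passed by 2 of them, SNRPN and ATP10A, both lower, and 5 of them did not overlap, 1 higher and 4 lower. The 4 flanking genes had a median of 0.18, between -0.10 and 0.69. The threshold was passed by 2 of these, NIPA1 and CYFIP1, both higher, and 3 did not overlap, 2 higher and 1 lower. The 10 genes were chosen with this contrast known, so nothing is read from these counts beside the 23.2% and 62.8% of all probe sets. ATP10A and CYFIP1 did not pass it with any 1 array left out.

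The snoRNA copies downstream of SNRPN were examined by their 1-symbol probe sets. This list and those below were chosen with earlier results of these data known. Their counts stand beside 14.6% higher and 14.7% lower among all 1-symbol probe sets. Genes named from a list are mostly those with the largest differences, so their adjusted p-values are given as description only. SNORD116, whose deletion is central to Prader-Willi syndrome, had 20 such probe sets. Of these, 16 fell in PC-3-BM, 0 rose, and the median difference was -0.86, with a range of -2.98 to -0.03. SNORD116-21 read 6.18 and 5.67 on the PC-3-BM arrays, against 9.04 and 8.78 on the PC-3 arrays (difference -2.98, SE 0.19, limma, adjusted p = 0.00228). SNORD116-22 read 4.06 and 4.68 in PC-3-BM, against 5.94 and 5.78 in PC-3 (difference -1.49, SE 0.21, limma, adjusted p = 0.0112), and SNORD116-13 read 4.27 and 3.95 in PC-3-BM, against 5.35 and 5.42 in PC-3 (difference -1.27, SE 0.12, limma, adjusted p = 0.00462). The arrays of the lines did not overlap for any of these 3 copies, which were named for their large differences, nor for 62.8% of all probe sets. The PC-3-BM means of SNORD116-22 and SNORD116-13 were below the lower quartile, which leaves the size of their fall uncertain. SNORD116-22 was lost without 1 or the other PC-3 array.

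The brightest copy, SNORD116-15, read 12.28 and 12.31 in PC-3-BM, against 13.02 and 12.72 in PC-3 (difference -0.58, SE 0.12, limma, adjusted p = 0.0283). The copies are near-identical in sequence and their probe sets can share signal, so they are not independent of each other or of the shared SNRPN probe sets. In all 14 SNORD116 probe sets whose mean over the 4 arrays was above the lower quartile the first PC-3 array was above the second, by a median of 0.29, while the PC-3-BM arrays were split 7 to 7. The first PC-3 array was also above the second in 59 of 75 1-symbol SNORD probe sets from outside the region, by a median of 0.13. Those 75 had a median difference between the lines of 0.06, with 13 higher and 6 lower in PC-3-BM. Without the first PC-3 array the median of SNORD116 was -0.73 and 10 of 20 fell. Leaving out the second PC-3 array gave 14, the first PC-3-BM array 9 and the second PC-3-BM array 8, and the part of the array pattern in these counts was not tested.

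**Figure D2:**
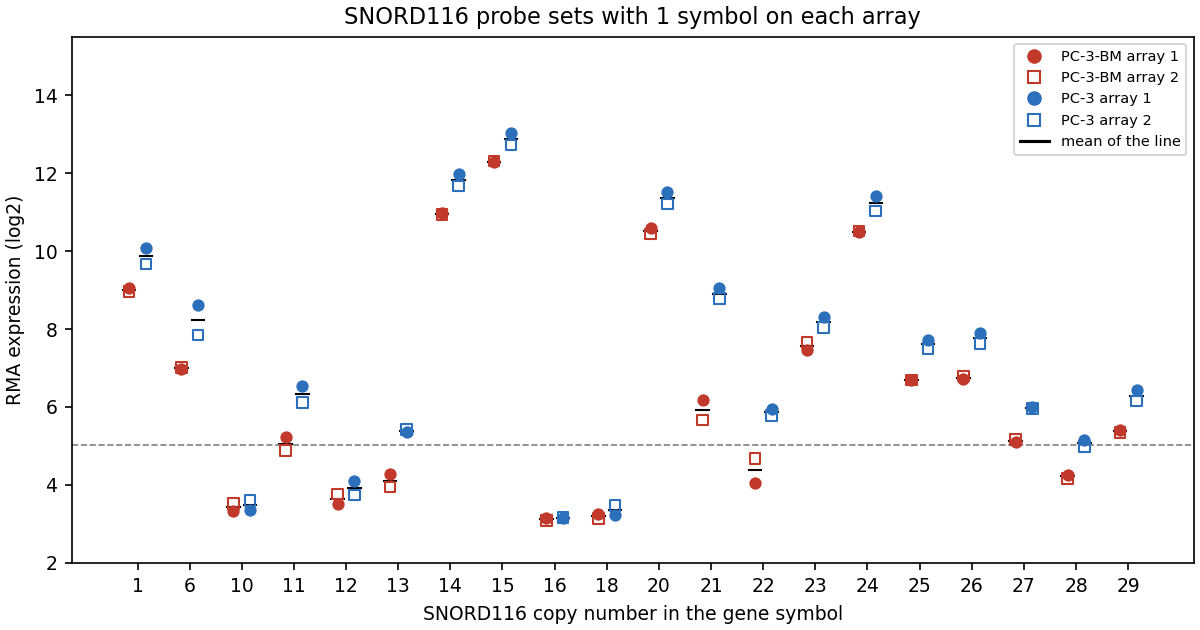
Level on the RMA log2 scale (vertical axis) for the 20 SNORD116 probe sets with 1 symbol (horizontal axis, copy number in the symbol) on each array, PC-3-BM in red left of PC-3 in blue, with filled circles for array 1, open squares for array 2, black bars for means and a dashed line at the lower quartile of 5.02. Of the 20 copies 16 fell in PC-3-BM, by the widest margin SNORD116-21, and the dim copies 10, 16 and 18 lie together in both lines.

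SNORD115, a brain-specific snoRNA that targets the serotonin receptor HTR2C transcript, had 20 1-symbol probe sets. All 20 were below the lower quartile in both lines, between 2.72 and 3.68 in PC-3-BM means and between 2.70 and 3.73 in PC-3 means. The fit called 0 of them (1 at an unadjusted p below 0.05), and the median difference was 0.01. SNORD115-25 read 3.48 and 3.50 in PC-3-BM, against 3.1 and 3.26 in PC-3 (difference 0.31, SE 0.08, limma, adjusted p = 0.0584), and it passed the threshold where only 1-symbol probe sets, or their mean per gene, entered the fit (limma, adjusted p = 0.0185 and 0.0169).

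Of 16 further transcripts of the region, 2 had a 1-symbol probe set and 6 were only on shared ones. PWAR6, a non-coding transcript, read 3.76 and 3.65 in PC-3-BM, against 4.33 and 4.41 in PC-3 (difference -0.67, SE 0.08, limma, adjusted p = 0.00726), all under the lower quartile, and was lost without the second PC-3 array. NPAP1, a testis-expressed imprinted gene of the region, had a difference of -0.20 (SE 0.08, limma, adjusted p = 0.136). The shared probe set of SNORD64 and PWAR5, which lie on the same long transcript, read 5.24 and 5.09 in PC-3-BM, against 6.83 and 6.64 in PC-3 (difference -1.57, SE 0.10, limma, adjusted p = 0.00216). The SNORD109A and SNORD109B probe sets, identical in value, read 4.95 and 4.96 in PC-3-BM, against 6.27 and 6.09 in PC-3 (difference -1.23, SE 0.09, limma, adjusted p = 0.00266). PWAR4, on a probe set shared with SNORD115-23, was not lower. Its means were 3.08 in PC-3-BM and 3.09 in PC-3, both under the lower quartile. The arrays overlapped (difference -0.01, SE 0.08, limma, adjusted p = 0.937). SNURF is given above with SNRPN.

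The order of genes along chromosome 15 shows where the differences stood. Between TUBGCP5 and TJP1, ends included, 9 other genes were measured by 1-symbol probe sets, and their median difference was -0.05. The members, the snoRNAs and the further transcripts given above, NPAP1 and PWAR6 among them, were left out of these 9. Of these, 0 rose and 2 fell, and the 2 became 0 with any 1 array left out and 4 with 1-symbol probe sets only. TUBGCP5, a gamma-tubulin complex subunit that lies next to CYFIP1, read 7.88 and 7.84 in PC-3-BM, against 8.19 and 8.29 in PC-3 (difference -0.38, SE 0.07, limma, adjusted p = 0.0248). APBA2, an adaptor that binds the amyloid precursor protein, read 8.12 and 8.01 in PC-3-BM, against 8.50 and 8.58 in PC-3 (difference -0.47, SE 0.08, limma, adjusted p = 0.017). NIPA1 and CYFIP1 thus stood beside genes with differences of -0.03 and -0.38. Further out NSMCE3 had a difference of 0.24 (SE 0.08) and TJP1 of 0.28 (SE 0.08), and the GABA receptor genes GABRA5 and GABRG3 had 0.11 (SE 0.18) and 0.06 (SE 0.07), none of which passed the threshold. Over the 602 1-symbol probe sets of chromosome 15 the median difference was -0.05, with 69 higher and 90 lower. Among all 1-symbol probe sets 14.6% were higher and 14.7% lower, and nothing is read from the counts of the region beside these shares.

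**Figure D3:**
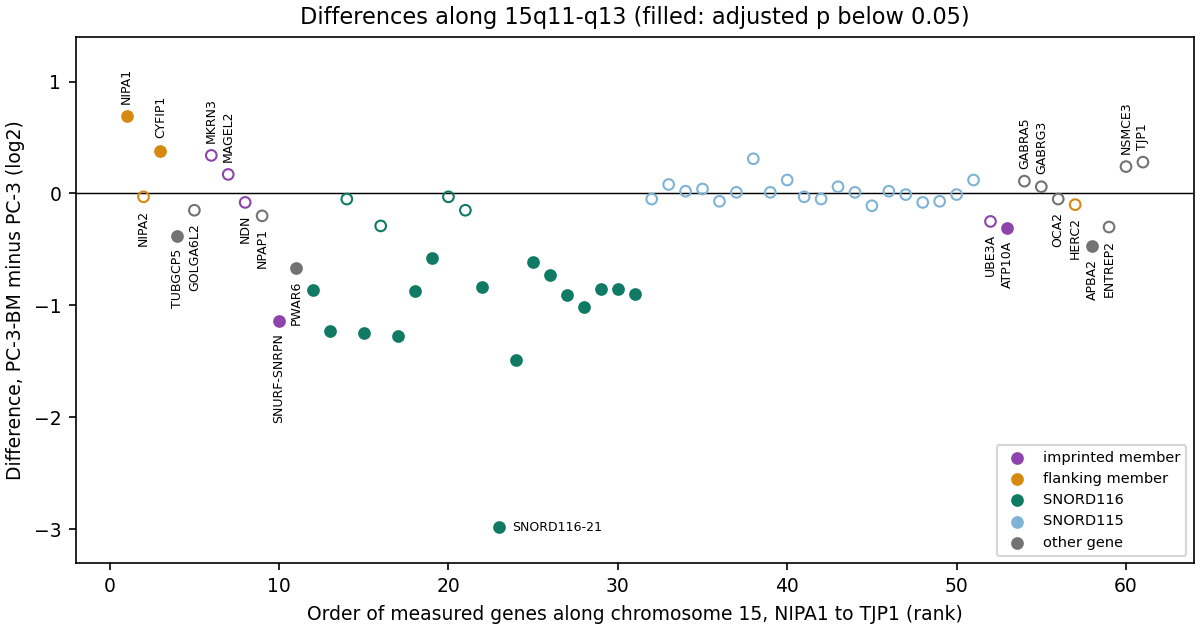
Difference between the lines (PC-3-BM minus PC-3, log2, vertical axis) of the measured genes in their order along chromosome 15 (horizontal axis, rank), coloured by group, with filled marks for an adjusted p below 0.05. SNURF-SNRPN and most SNORD116 copies are below 0, the SNORD115 copies lie near 0, NIPA1 and CYFIP1 are above 0, and the genes between and beyond them lie on both sides.

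Genes that work with the members or resemble them were counted by their brightest 1-symbol probe set. Among all 1-symbol probe sets 14.6% were higher and 14.7% were lower in PC-3-BM. The lists were chosen with results known, so nothing is read from the counts of this list and those below beside these shares. Of the 7 genes of the Sm core, the protein ring on spliceosomal RNAs of which SmN is a part, 4 fell, 0 rose, and the median difference was -0.51. SNRPD1 fell by 0.84 (SE 0.08, limma, adjusted p = 0.0047), with 7.45 and 7.44 in PC-3-BM, against 8.21 and 8.36 in PC-3. SNRPB, the paralog of SNRPN that most cells use in its place, fell by 0.69 (SE 0.07, limma, adjusted p = 0.00504), with 10.62 and 10.64 in PC-3-BM, against 11.35 and 11.28 in PC-3. SNRPE fell by 0.64 (SE 0.08, limma, adjusted p = 0.00724). Without 1 or the other PC-3 array 2 of the 4 calls were left, and SNRPE was not among them.

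Of 13 measured partners of MAGEL2 in endosomal sorting, 3 rose and 1 fell, with a median difference of 0.07. These 4 calls became 0 with any 1 array left out and with a replicate block, while an intensity trend gave 7. CAPZB, a capping protein subunit found in the WASH complex, rose by 0.32 (SE 0.07, limma, adjusted p = 0.0368), WASHC4 rose by 0.31 (SE 0.07, limma, adjusted p = 0.0359) and the retromer subunit VPS26B fell by 0.40 (SE 0.10, limma, adjusted p = 0.0465). TRIM27 and USP7, the enzymes that act directly with MAGEL2, had differences of -0.01 and 0.07 (SE 0.07 each). Of 7 other MAGE genes of the necdin kind, 1 rose and 2 fell. MAGED2 rose by 0.44 (SE 0.07, limma, adjusted p = 0.0166), whereas MAGEF1 fell by 0.62 (SE 0.07, limma, adjusted p = 0.00716) and MAGEE1 fell by 0.40 (SE 0.08, limma, adjusted p = 0.0248), and the median was -0.08. MAGED2 and MAGEE1 were lost with any 1 array left out, and MAGEF1 without 1 or the other PC-3 array.

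Of 8 measured genes of the WAVE complex apart from CYFIP1, 3 rose and 0 fell, with a median of -0.15. ABI1 read 8.86 and 8.77 in PC-3-BM, against 7.78 and 7.84 in PC-3 (difference 1.0, SE 0.08, limma, adjusted p = 0.00286). NCKAP1 rose by 0.36 (SE 0.07, limma, adjusted p = 0.0253) and WASF2 by 0.35 (SE 0.07, limma, adjusted p = 0.0297). With any 1 array left out ABI1 was the 1 call that remained. CYFIP2, the paralog of CYFIP1, had a difference of -0.17 (SE 0.10).

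Among 14 paralogs of the members, with NEURL4, a partner of UBE3A and HERC2, 5 rose and 2 fell, with a median of 0.08. NIPAL3, a relative of the NIPA transporters, read 10.35 and 10.38 in PC-3-BM, against 9.34 and 9.33 in PC-3 (difference 1.03, SE 0.07, limma, adjusted p = 0.00228). The 2 genes that fell were also relatives of the NIPA transporters, NIPAL2 (difference -0.71, SE 0.07) and NIPAL4 (difference -0.68, SE 0.11). NIPAL1 had a difference of -0.02 (SE 0.07). HERC3 rose by 1.01 (SE 0.07, limma, adjusted p = 0.00257) and HERC5, an interferon-induced ligase for ISG15, by 0.82 (SE 0.11, limma, adjusted p = 0.01). MKRN1 and MKRN2, the paralogs of MKRN3, had differences of 0.01 (SE 0.07) and -0.40 (SE 0.11), neither past the threshold. HERC5 was lost without 1 or the other PC-3-BM array, and the number of calls was 4 in place of 7 without the first of them.

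Of 30 measured imprinted genes of other chromosomes, 8 rose and 3 fell, with a median of 0.02. ZDBF2 read 7.24 and 7.37 in PC-3-BM, against 5.87 and 5.92 in PC-3 (difference 1.41, SE 0.08, limma, adjusted p = 0.00183). MEST, a gene of the hydrolase fold family that is read from the paternal copy, was at 7.85 and 8.0 in PC-3-BM, against 9.24 and 9.24 in PC-3 (difference -1.31, SE 0.08, limma, adjusted p = 0.00206). TFPI2, a protease inhibitor, rose by 1.02 (SE 0.09, limma, adjusted p = 0.00382). Without 1 or the other PC-3 array 7 genes were called in place of 11.

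Of 11 measured genes that maintain imprints or silence 15q11, 2 rose and 2 fell, with a median of -0.02. UHRF1, which guides the maintenance methyltransferase DNMT1 to replicated DNA, read 8.54 and 8.76 in PC-3-BM, against 9.66 and 9.73 in PC-3 (difference -1.05, SE 0.10, limma, adjusted p = 0.00443). That is its brighter probe set, and the mean over its 1-symbol probe sets gave -0.50. ZNF445, a zinc-finger protein that protects imprints, fell by 0.44 (SE 0.08, limma, adjusted p = 0.0193), and ARID4B, which in mice acts at the Snrpn imprinting centre, rose by 0.67 (SE 0.09, limma, adjusted p = 0.00998). DNMT1 itself had a difference of -0.18 (SE 0.08), and ZNF274, which binds SNORD116 copies, of 0.29 (SE 0.09). ZNF445 was lost with any 1 array left out, ARID4B without the first array of either line, and 1 or 2 genes were then called in place of 4.

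**Figure D4:**
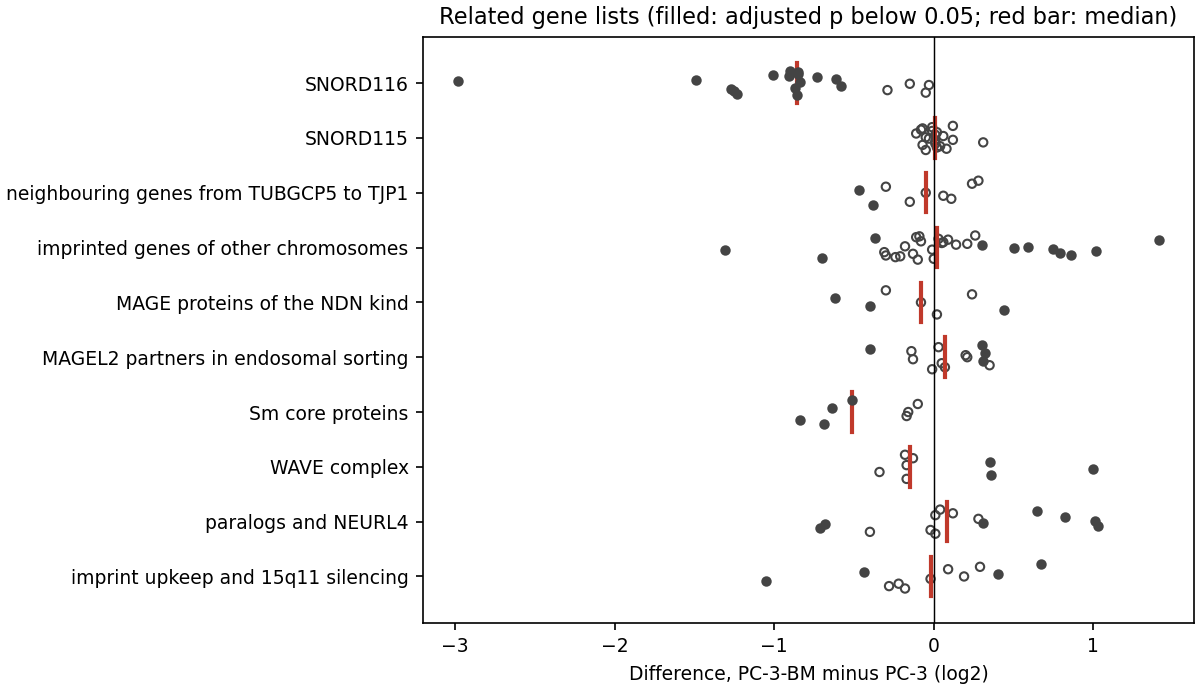
Difference between the lines (PC-3-BM minus PC-3, log2, horizontal axis) of each measured gene in 10 lists (rows), with filled marks for an adjusted p below 0.05 and a red bar at the list's median. SNORD116 (median -0.86) and the Sm core (median -0.51) lie mostly below 0, while the other lists spread around 0, where the median of all probe sets was -0.02.

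The genes whose pattern over the 4 arrays was most like that of SNURF-SNRPN, by root mean square distance after removing each probe set's mean, were EXOSC2 (0.013), SEPTIN6 (0.018) and ADAM19 (0.023, all in log2 units). EXOSC2 read 9.36 and 9.39 in PC-3-BM, against 10.46 and 10.52 in PC-3, which is nearly the same step at a higher level. A likeness over 4 arrays in 2 lines reflects little more than an equal difference between the lines.

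Markers of the cell types that the samples could hold were set beside these values. Of 5 measured markers of PC-3 identity, 3 fell and 1 rose. KRT8 had a difference of -2.03, EPCAM of -1.30 and KRT18 of -0.40, while ITGA6 had 0.69, and KLK3, known to be low in PC-3, stayed between 5.72 and 6.0 on all 4 arrays. The summed linear level of the list was 3370 and 3596 in PC-3-BM, against 5037 and 4766 in PC-3. Of 5 blood markers 0 were called, and their sum was 192 and 193 in PC-3-BM, against 211 and 199 in PC-3. Of 6 markers of bone and stroma 2 rose, COL1A1 (0.68) and LUM (0.53), and LUM was below the lower quartile in both lines. IBSP, ALPL, COL1A2 and DCN had differences of 0.0, -0.25, -0.11 and 0.06. The sum of the 6 was 670 and 675 in PC-3-BM, against 527 and 503 in PC-3, and COL1A1 made up most of it in both lines. Of 4 endothelial markers PECAM1 rose (0.45), while KDR, VWF and CDH5 had differences of -0.16, -0.24 and -0.06. Their sum was 1925 and 1800 in PC-3-BM, against 2129 and 1947 in PC-3. Most of it was KDR, with means of 10.71 in PC-3-BM and 10.87 in PC-3. Of 5 neuronal markers 2 rose, ENO2 (1.97) and SYT1 (1.46), while RBFOX3, SNAP25 and STMN2 had differences of -0.11, -0.04 and 0.20. The sum of the 5 was 2897 and 2815 in PC-3-BM, against 1002 and 1022 in PC-3. ENO2 and SYT1 made up most of this sum in both lines. The 5 neuronal markers did not move together, and the part of any marker in the members' differences was not tested.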

How the data were processed

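Total RNA of PC-3-BM and PC-3 cells (2 arrays each, grouped by the labels) was hybridised to Affymetrix Human Gene ST arrays, and the authors deposited log2 expression values made with RMA. Their processing notes list limma 3.24 and R 3.2. Values of 33297 probe sets were used as they stood, and they assume that most genes keep their level. The genome build of the probe annotation was not given in the sources used here, so RefSeq GRCh38.p14 served for gene order and promoters only. Probe sets were named from the platform annotation, of which 19460 had 1 symbol, 1754 several and 12083 none.

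PC-3-BM minus PC-3 was fitted with limma 3.58.1 in R 4.3.3 (lmFit and eBayes, 2 residual and 2.88 prior degrees of freedom, two-sided, Benjamini-Hochberg over all 33297 probe sets, threshold 0.05), and the fit was tested on simulated data. The words rose and fell are used of adjusted p below 0.05. Members and lists were chosen with earlier results of these data known. All member probe sets were named, and of each list up to 3 genes with the largest differences past the threshold, or the 2 brightest where none passed, each by its brightest 1-symbol probe set. Other genes named with their values were chosen after those values were seen. In the region these were SNORD116-15, SNORD115-25, NPAP1, the shared probe sets of further transcripts and neighbours below the threshold. Elsewhere they were the enzymes next to MAGEL2, CYFIP2, the makorins, other NIPA relatives, DNMT1 and ZNF274. For the member with the largest imprinted difference, SNRPN, the 3 genes nearest in pattern were named. Alternatives were no moderation, an intensity trend with robust prior, median centring, renewed quantile normalization, means above 5 or 6, 1-symbol probe sets only, the mean over a gene's 1-symbol probe sets, a replicate block and leaving out each array.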

Additional observations from a re-analysis of the deposited data

How the results depend on the processing

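Across 7 alternatives that change the scaling, the block or the arrays used, 9 of the 10 genes kept their direction in all 7. NIPA2 did so in 5, between -0.09 and 0.03. Much of this was fixed by the design. A replicate block cannot change a difference where each line has both array numbers. Leaving out 1 array cannot turn the sign of the 8 genes whose arrays did not overlap. SNRPN ranged from -1.16 to -1.10, NIPA1 from 0.67 to 0.72, CYFIP1 from 0.36 to 0.42, ATP10A from -0.38 to -0.25 and MKRN3 from 0.18 to 0.49. Without moderation of the variances, which leaves 2 residual degrees of freedom, 13 probe sets passed the threshold in place of 7717, and 9307 had an unadjusted p below 0.05. That fit called 0 of the 10 members (4 at an unadjusted p below 0.05) in place of 4, and 0 of the 140 list genes (62 at an unadjusted p below 0.05) in place of 55. Leaving out 1 array gave 2238 to 3854 probe sets, 2 to 2 members and 27 to 31 list genes. CYFIP1 was lost without each of the 4 in turn, and ATP10A was lost there, under median centring, renewed quantile normalization, the intensity trend and the replicate block. With 1-symbol probe sets only, MKRN3 and UBE3A were also called and SNRPN had none, and UBE3A was called with means above 6. Arrays of the same number did not deviate together (correlation -0.017), so they share only a number, and the fit with a replicate block called 6473 probe sets. Median centring gave 4212 higher and 3254 lower probe sets, in place of 3854 and 3863. RMA background limits NDN, SNORD115 and PWAR6, which were dim in both lines.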
